A study of Homo sapiens with 6 samples.

Results

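The genes described here are 9 genes of vitamin A (retinoid) metabolism and signalling: RDH10, DHRS3, ALDH1A1, ALDH1A3, CRABP2, RARA, RARB, RARG and CYP26B1. They were taken by symbol from the deposited expression table, and all 9 were found among its 24580 rows. RNA sequencing was done on LoVo, an established cell line from a human colorectal adenocarcinoma, labelled wildtype, and on LoVo-HM, labelled as a high-metastatic subline of it. Each of the 2 groups had 3 libraries, no treatment is recorded for either, and neither the origin of LoVo-HM nor whether the libraries of a group came from separate cultures is stated in the labels. The p-values therefore measure only the spread between these libraries, which may be technical.

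Retinol is oxidised to retinal by enzymes such as RDH10 and reduced back by DHRS3. Retinal is oxidised irreversibly to retinoic acid by the ALDH1A dehydrogenases, and CYP26 enzymes break retinoic acid down. Retinoic acid is carried by CRABP2 to the nuclear receptors RARA, RARB and RARG, which bind DNA as partners of RXR receptors. In the intestine the pathway is known for its part in epithelial differentiation, and ALDH1 activity is widely used as a marker of stem-like cells in colorectal cancer.

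Levels are in FPKM (fragments per kilobase of a transcript, relative to the mapped fragments of each library) and are given as mean ± SD over 3 libraries. Differences are LoVo-HM minus LoVo on the log2(FPKM + 1) scale, ± SE, which understates changes of low values. They were tested with limma over all 14487 genes whose mean reached 0.5 FPKM, and a Benjamini-Hochberg adjusted p under 0.05 was called a change. Library totals ran from 424624 to 439082 FPKM, and the read depth is unknown. Of 8 epithelial markers, 7 were at 1 FPKM or more in both lines, and their sum was 2036 to 2089 FPKM across LoVo libraries against 2621 to 2726 FPKM across LoVo-HM libraries, while VIL1, which encodes villin, was listed at 0 in every library. Most of that sum came from keratins. KRT8, KRT18, KRT19 and CDX2 were higher in LoVo-HM (0.17, 0.65, 1.88 and 0.74), whereas EPCAM fell from 128 ± 1.99 to 51.7 ± 2.60 FPKM, the E-cadherin gene CDH1 from 48.0 ± 1.38 to 7.91 ± 0.36 FPKM and CLDN4 from 19.3 ± 1.39 to 8.01 ± 0.89 FPKM. The part of these markers in the results below was not tested. Of 7 fibroblast, 6 immune and 4 endothelial markers, COL1A1 and CD68 alone reached a mean of 1 FPKM in either line. Summed fibroblast markers ran from 4.83 to 6.36 FPKM across LoVo and from 4.92 to 5.75 FPKM across LoVo-HM libraries, and immune markers from 3.84 to 4.02 and from 2.90 to 3.30 FPKM. Summed endothelial markers were at most 0.109 FPKM. Fewer cells expressing a gene and less RNA per cell cannot be told apart in bulk RNA.

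The direct repeat with 5 bases between its half-sites, called DR5, is the textbook retinoic acid response element, and its sequence is shown for the searched genes that hold it near a start. Those of the 9 genes that had a window and their relatives CYP26A1 and ALDH1A2 were searched. Other genes of the pathway entered only the share over all windows. Windows from 250 bases before to 50 bases after RefSeq starts (GRCh38.p14) were searched on both strands for 2 half-sites in the same orientation, each being the hexamer AGGTCA, the hexamer AGTTCA, the hexamer GGGTCA or the hexamer GGTTCA. RefSeq windows were found for 8 of the 9 genes, 15 windows in all. None was found for RDH10, which was therefore not searched. A DR5 was present in 1 window of RARB and in 1 window of CYP26A1, an enzyme related to CYP26B1 that also breaks down retinoic acid. The other windows of RARB and CYP26A1 held none. No window of ALDH1A2 or of the other searched genes held a DR5, whereas 0.0883% of all 35116 windows held one. The same half-sites 1 or 2 bases apart (DR1 and DR2) were in none of these windows, and in 0.131% and 0.0399% of all windows. The 2 sites follow, with the half-sites in capitals, and that of CYP26A1 is read on the strand opposite to the gene.
RARB site, chr3:25428210-25428226: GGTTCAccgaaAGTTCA
CYP26A1 site, chr10:93073803-93073819: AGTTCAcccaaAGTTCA
The RARB site begins 53 bases before the start. The 250 bases before this start (plus strand) are shown because they hold the element, with the half-sites in capitals.
RARB, chr3:25428013-25428262: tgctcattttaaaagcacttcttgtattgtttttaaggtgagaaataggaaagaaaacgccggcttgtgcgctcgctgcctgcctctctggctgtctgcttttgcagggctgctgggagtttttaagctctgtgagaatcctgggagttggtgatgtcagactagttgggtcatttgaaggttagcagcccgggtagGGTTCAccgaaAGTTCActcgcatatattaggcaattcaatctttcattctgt
The window of ALDH1A1 is shown because this gene had the largest change of the set. It held none of these repeats and 1 CCAAT box, in capitals, a motif that 34.6% of all windows held on either strand. It is given on the minus strand, without the 3 bases next to the start that GENCODE 29 annotates as untranslated exon.
ALDH1A1, chr9:72953057-72953303: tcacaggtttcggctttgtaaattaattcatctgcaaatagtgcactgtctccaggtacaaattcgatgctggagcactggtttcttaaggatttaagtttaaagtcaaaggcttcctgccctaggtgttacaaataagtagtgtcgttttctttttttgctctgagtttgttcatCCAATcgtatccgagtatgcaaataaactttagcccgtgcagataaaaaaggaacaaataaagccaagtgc
A match of letters does not show that a factor binds there.

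**Figure D1:**
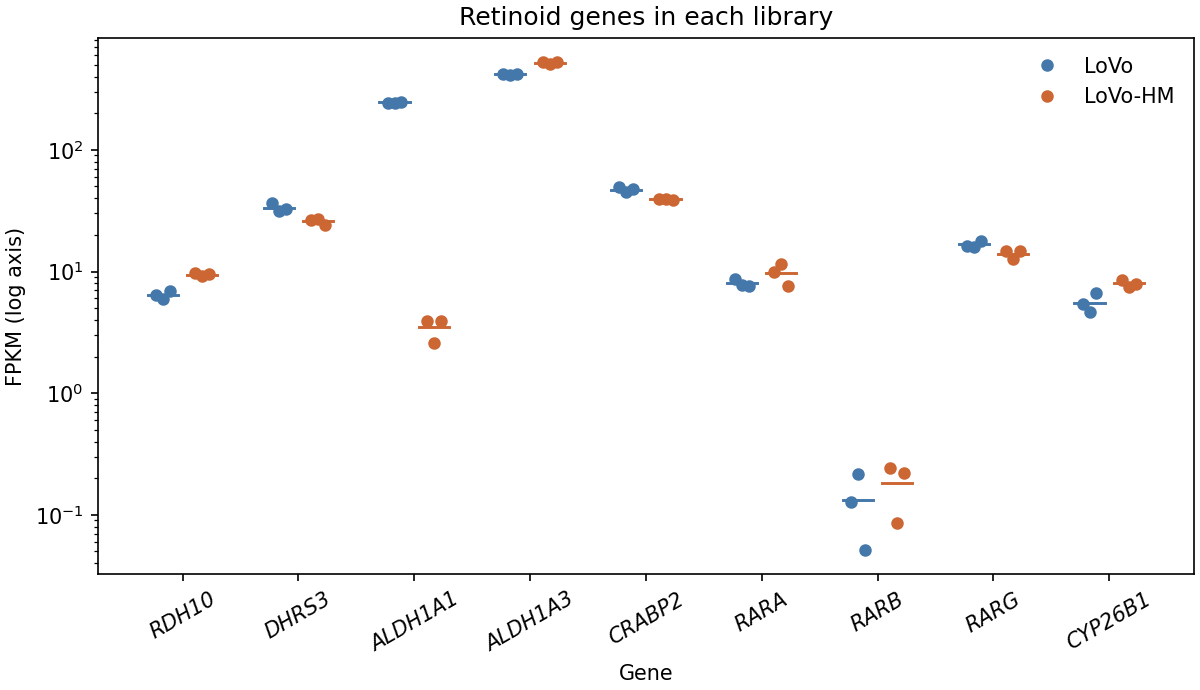
FPKM of the 9 retinoid genes (log axis) in each of 3 LoVo and 3 LoVo-HM libraries, with points for libraries and lines for group means. ALDH1A1 lies near 245 FPKM in LoVo against 3.48 FPKM in LoVo-HM, the other tested genes differ far less, and RARB is below 0.3 FPKM in every library.

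Of the 9 genes, 8 were high enough to be tested, and 7 of the 8 changed, 3 higher and 4 lower in LoVo-HM. Over all tested genes 44.9% changed, 21.8% higher and 23.1% lower. The median difference of the 8 was -0.0099, beside 0.0027 over all tested genes. Only ALDH1A1 passed a change of 2-fold on the log2 scale, which 6.56% of all tested genes passed in either direction and 4.18% as a decrease. For 7 of the 8 the libraries of one line all lay above those of the other, as they did for 55% of all tested genes.

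**Figure D2:**
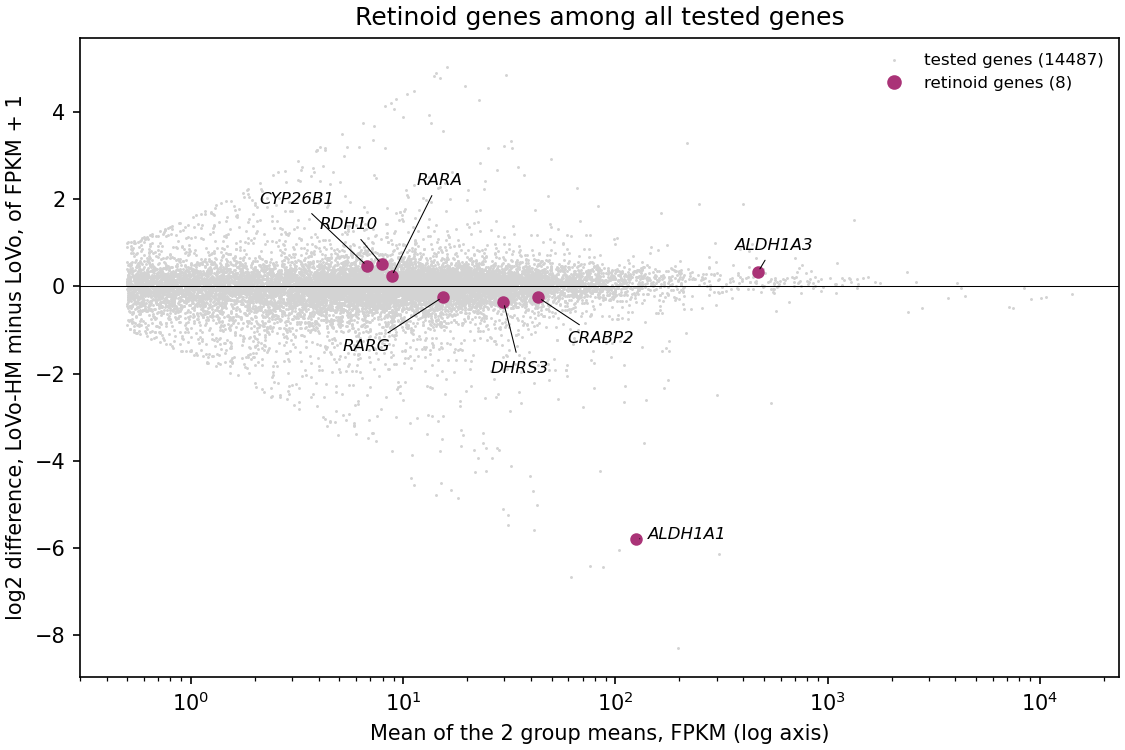
Difference between the lines (log2 of FPKM + 1, LoVo-HM minus LoVo) against mean level (FPKM, log axis) for all 14487 tested genes in grey and the 8 tested retinoid genes in purple. ALDH1A1 sits at -5.79 near the lower edge of the plot, and the other 7 lie between -0.35 and 0.50.

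Among the enzymes that make retinoic acid, the 2 expressed ALDH1A genes went opposite ways. ALDH1A1 (ENSG00000165092, chromosome 9, 72900662 to 73080442, GRCh38) was at 244, 245 and 247 FPKM in LoVo and at 3.95, 2.60 and 3.90 FPKM in LoVo-HM. All LoVo libraries were thus far above all LoVo-HM libraries, and the mean was 70.4-fold lower in LoVo-HM. The difference was -5.79 ± 0.11 (limma adjusted p = 2.69e-09). By level, ALDH1A1 ranked 165 of the 14487 tested genes in LoVo and 10127 in LoVo-HM, and its decrease ranked 7 among all decreases.

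ALDH1A3 (ENSG00000184254, chromosome 15, 100877714 to 100916626) was at 422, 411 and 418 FPKM in LoVo and at 526, 509 and 524 FPKM in LoVo-HM. The groups did not overlap, and ALDH1A3 was the most abundant of the 9 genes in both lines. It rose by 0.32 ± 0.034 (limma adjusted p = 9.6e-05), a mean 1.25 times that of LoVo. With quantile normalization the rise was 0.19 (limma adjusted p = 0.000593). ALDH1A2, the remaining member of the family, was too low to test, listed at 0 in every LoVo library and at 0.0125, 0 and 0.119 FPKM in LoVo-HM.

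FPKM is scaled to gene length, so levels within a family can be summed. The ALDH1A sum was 662 ± 5.25 FPKM in LoVo against 523 ± 9.91 FPKM in LoVo-HM, 79% of the LoVo mean. In LoVo, ALDH1A1 held 37.0 ± 0.36% of that sum and ALDH1A3 held 63.0 ± 0.36%. In LoVo-HM the shares were 0.664 ± 0.14% and 99.3 ± 0.14%. Nearly all of the ALDH1A level measured in LoVo-HM was thus that of ALDH1A3. Shares are descriptions with no test.

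The pair of enzymes that interconvert retinol and retinal also went opposite ways. RDH10 (ENSG00000121039, chromosome 8, 73294612 to 73325281), which oxidises retinol, was at 6.42, 5.91 and 6.88 FPKM in LoVo and at 9.65, 9.17 and 9.52 FPKM in LoVo-HM. Every LoVo-HM library was above every LoVo library. RDH10 rose by 0.50 ± 0.072 (limma adjusted p = 6e-04). DHRS3 (ENSG00000162496, chromosome 1, 12567910 to 12617731), which reduces retinal and is itself known to be induced by retinoic acid, was at 36.5, 31.2 and 32.6 FPKM in LoVo and at 26.4, 27.1 and 24.3 FPKM in LoVo-HM. Its groups did not overlap either, and it fell by 0.35 ± 0.070 (limma adjusted p = 0.00365).

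CRABP2 (ENSG00000143320, chromosome 1, 156699606 to 156705816), the carrier that hands retinoic acid to the receptors, was at 49.1, 44.8 and 47.3 FPKM in LoVo and at 39.5, 39.4 and 38.9 FPKM in LoVo-HM. The groups did not overlap, with less spread in LoVo-HM. The difference was -0.25 ± 0.049 (limma adjusted p = 0.00304).

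**Figure D3:**
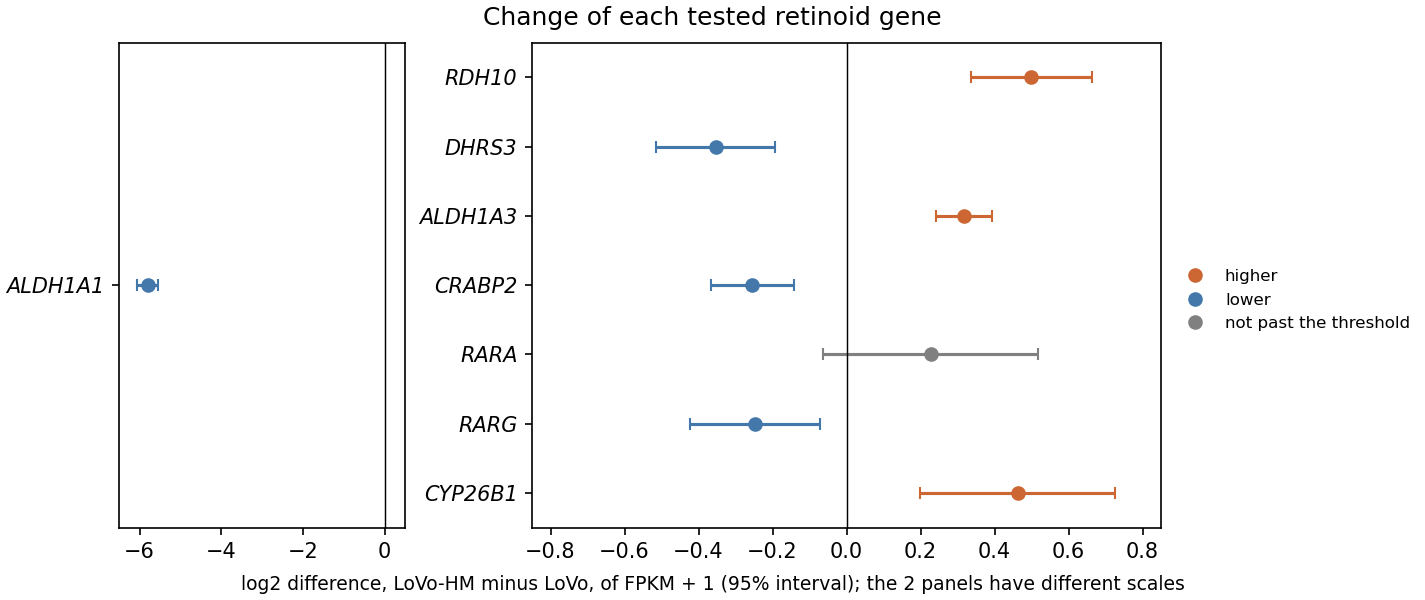
Difference between the lines (log2 of FPKM + 1, LoVo-HM minus LoVo) for each tested retinoid gene, with 95% intervals from limma. ALDH1A1 has its own panel and scale at -5.79, RDH10, ALDH1A3 and CYP26B1 lie above 0, DHRS3, CRABP2 and RARG below 0, and the interval of RARA spans 0.

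Among the retinoic acid receptors, RARG was the most abundant in every library and RARB was below 0.3 FPKM in all of them. RARG (ENSG00000172819, chromosome 12, 53210567 to 53232980) was at 16.3, 15.9 and 18.0 FPKM in LoVo and at 14.6, 12.6 and 14.7 FPKM in LoVo-HM. The groups were close to each other without overlap. RARG fell by a small amount (-0.25 ± 0.076, limma adjusted p = 0.0284). This call was lost without LoVo replicate 1 (limma adjusted p = 0.0528), LoVo replicate 3 (0.0938) or LoVo-HM replicate 2 (0.079), and without a filter on low values (0.0515).

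RARA (ENSG00000131759, chromosome 17, 40309192 to 40357643) was at 8.67, 7.68 and 7.63 FPKM in LoVo and at 9.83, 11.5 and 7.60 FPKM in LoVo-HM. LoVo-HM replicate 3 was as low as the LoVo libraries, so the groups overlapped. The difference of 0.23 ± 0.13 did not pass the test (95% interval -0.063 to 0.52, limma adjusted p = 0.18), but without LoVo-HM replicate 3 it was 0.37 and passed (limma adjusted p = 0.0159). Without LoVo-HM replicate 2 it was 0.10 (limma adjusted p = 0.497).

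RARB (ENSG00000077092, chromosome 3, 25174332 to 25597932), whose DR5 is printed above and which is known as a target of its own pathway, was at 0.127, 0.215 and 0.0514 FPKM in LoVo. In LoVo-HM it was at 0.240, 0.0859 and 0.220 FPKM. These values are for the whole gene and do not separate its starts. The groups overlapped, and RARB was too low for the main test. Without a filter on low values its difference was 0.063 (95% interval -0.12 to 0.25, limma adjusted p = 0.588).

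The RAR sum was 24.9 ± 0.95 FPKM in LoVo against 23.8 ± 1.16 FPKM in LoVo-HM. RARG held 67.3 ± 2.57% of it in LoVo and 58.9 ± 6.50% in LoVo-HM, where single libraries ran from 52.2 to 65.2%. RARA held 32.1 ± 2.38% and 40.4 ± 6.82%. Of the RXR partners, RXRA was at 10.5 ± 0.34 and 10.9 ± 1.19 FPKM and RXRB at 14.8 ± 0.063 and 15.4 ± 0.90 FPKM in LoVo and LoVo-HM. Neither passed the test, with 95% intervals of -0.13 to 0.23 for RXRA (limma adjusted p = 0.634) and -0.078 to 0.20 for RXRB (limma adjusted p = 0.456). RXRG was listed at 0 in all 6 libraries.

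CYP26B1 (ENSG00000003137, chromosome 2, 72129238 to 72148038), which inactivates retinoic acid by hydroxylation, was at 5.36, 4.62 and 6.68 FPKM in LoVo and at 8.59, 7.48 and 7.84 FPKM in LoVo-HM. Every LoVo-HM library was above every LoVo library, and CYP26B1 rose by 0.46 ± 0.12 (limma adjusted p = 0.0111). The related CYP26A1, whose DR5 is printed above, was at 5.97, 6.66 and 7.08 FPKM in LoVo and at 3.81, 2.96 and 3.60 FPKM in LoVo-HM. It fell without overlap of the groups (-0.77 ± 0.099, limma adjusted p = 0.00032). CYP26C1 was listed at 0 in every library. The CYP26 sum was 12.1 ± 1.42 FPKM in LoVo against 11.4 ± 0.98 FPKM in LoVo-HM, 94.2% of the LoVo mean. CYP26A1 held 54.4 ± 4.08% of it in LoVo and 30.2 ± 1.64% in LoVo-HM, and CYP26B1 held the rest. This split was computed after the values of both genes had been seen.

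**Figure D4:**
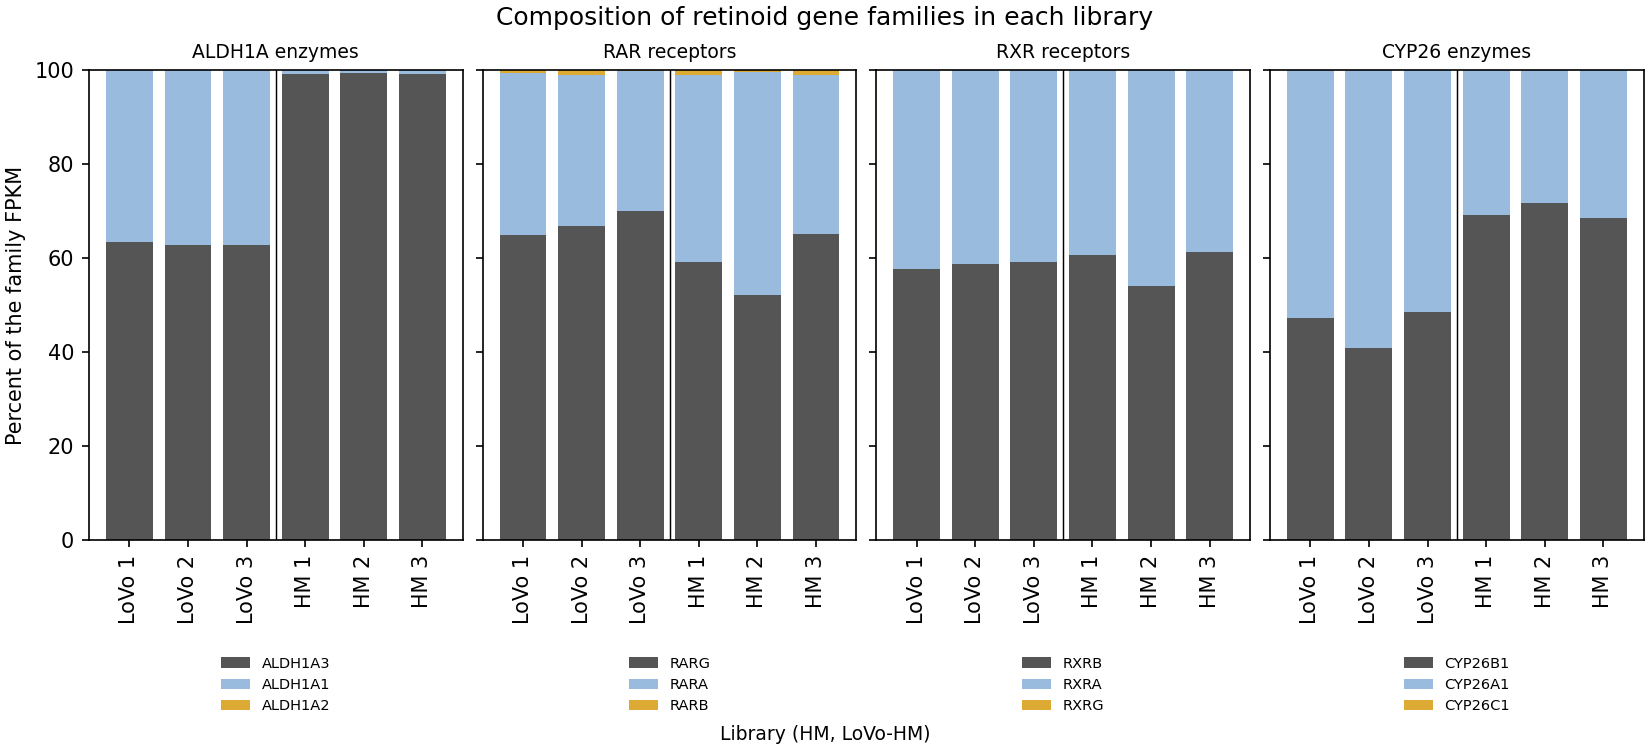
Share of each family's summed FPKM (percent) held by each gene in the 3 LoVo and 3 LoVo-HM libraries, one stacked bar a library. ALDH1A1 goes from 37.0% of the ALDH1A sum in LoVo to 0.664% in LoVo-HM, and CYP26A1 from 54.4% to 30.2% of the CYP26 sum, while the RXR bars average 58.6% RXRB in both lines.

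In order of level, LoVo had ALDH1A3, ALDH1A1, CRABP2, DHRS3, RARG, RARA, RDH10, CYP26B1 and RARB. Only RDH10 and CYP26B1 overlapped as neighbours in that order. LoVo-HM had ALDH1A3, CRABP2, DHRS3, RARG, RARA, RDH10, CYP26B1, ALDH1A1 and RARB, with the range of RARA over that of both RDH10 and CYP26B1. ALDH1A1 was the gene that moved, from the second place to the eighth.

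Among the 12604 other tested genes with an Ensembl identifier, those whose pattern over the 6 libraries was nearest to that of ALDH1A1, by Euclidean distance between centred log2(FPKM + 1) values, were FXYD3 (0.51), CD74 (0.59) and PTHLH (0.60). They encode a sodium pump regulator, the class II invariant chain and the parathyroid hormone-related protein, and their differences were -5.59, -6.14 and -6.05. For RDH10, the member with the largest increase, the nearest were RUFY3 (0.059), ARHGAP35 (0.067) and SUGP2 (0.068), with differences of 0.52, 0.48 and 0.53.

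Other genes were read from 6 lists, of which 5 hold genes of the pathway and the sixth the other aldehyde dehydrogenases. They held 106 genes of the table, 72 of them tested. Of these 17 rose, 25 fell and 30 did not pass the threshold, 58.3% changed beside 44.9% of all tested genes, and their median difference was -0.043. RPE65, AKR1C3 and HOXD4 averaged under 0.5 FPKM in 1 line and were tested only through the line where they were high (HOXD4 is named for this, after its values were seen). Of the 10 tested genes of uptake, storage and transport that are reported here, 7 fell and 3 did not pass the threshold (median -0.34). Over all tested genes 23.1% fell and 21.8% rose. Another 7 genes of this list were too low to test. Without a filter on low values, LRAT fell by 0.48 (limma adjusted p = 0.00136) and BCO2 rose by 0.28 (limma adjusted p = 0.00745). Both averaged under 0.5 FPKM in each line and are named after their values were seen. RBP4, the plasma carrier of retinol, was at 100, 91.6 and 85.7 FPKM in LoVo and at 27.1, 23.1 and 21.8 FPKM in LoVo-HM, with no overlap (-1.91, limma adjusted p = 4.52e-07). RPE65, the retinoid isomerase of the eye, was low in both lines and fell from 1.80 ± 0.25 to 0.144 ± 0.037 FPKM (-1.29, or -2.96 with a pseudocount of 0.1). The fatty acid translocase CD36, the retinol-binding RBP5 and the acyltransferase DGAT1 fell by 0.52, 0.83 and 0.45.

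CRABP1, the relative of CRABP2, did not pass the test at 18.6 ± 1.82 and 18.2 ± 1.44 FPKM (95% interval -0.22 to 0.17, limma adjusted p = 0.817). The retinol receptor STRA6 was too low to test, listed at 0 in LoVo and at 0.146, 0.235 and 0 FPKM in LoVo-HM.

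Of 8 tested enzymes that oxidise or reduce retinol and retinal, 1 rose, 3 fell and 4 did not pass the threshold (median -0.043), 50% changed beside the 44.9% of all tested genes. SDR16C5, an epidermal retinol dehydrogenase, was at 12.2, 11.8 and 12.7 FPKM in LoVo and at 1.51, 1.51 and 2.06 FPKM in LoVo-HM (difference -2.30, limma adjusted p = 2.53e-07). It was the retinol oxidising enzyme with the largest decrease of the list, in the line where RDH10 was higher. The aldo-keto reductase AKR1C3 fell from 0.997 ± 0.14 to 0.150 ± 0.13 FPKM (-0.80, or -2.23 with a pseudocount of 0.1), and was too low to test without LoVo replicate 1 or LoVo replicate 3. The mitochondrial RDH13 fell by 0.34, and the retinal reductase DHRS4 rose by 0.25. AKR1C3 and DHRS4 have close paralogs, so their values are uncertain. RDH5 was at 0.679 ± 0.085 and 1.06 ± 0.37 FPKM (0.28, limma adjusted p = 0.163), but passed without LoVo-HM replicate 3 (0.44, limma adjusted p = 0.0221). Without LoVo-HM replicate 1 it was 0.18 (limma adjusted p = 0.415).

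Besides CYP26A1, the breakdown list had 2 tested genes. CYP2S1, a cytochrome reported to metabolise retinoic acid, fell from 11.7 ± 1.63 to 5.58 ± 0.081 FPKM (-0.94, limma adjusted p = 8.35e-05). CYP3A5, which has close paralogs, was at 0.713 ± 0.42 and 1.35 ± 0.15 FPKM (0.48, limma adjusted p = 0.0468). That call was lost in 9 of 15 alternatives. Among them were leaving out any library other than LoVo replicate 3 (limma adjusted p from 0.0748 to 0.139), a pseudocount of 0.1 (0.95, limma adjusted p = 0.0538) and no filter on low values (0.0903).

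Among RXR receptors and receptor cofactors, 5 rose, 3 fell and 9 did not pass of 17 tested (median 0.032), 47.1% changed beside 44.9% of all tested genes. NRIP1, a corepressor that binds ligand-bound receptors and is known to be induced by retinoic acid, was at 5.81, 6.28 and 5.94 FPKM in LoVo and at 28.0, 25.7 and 27.8 FPKM in LoVo-HM. It rose by 2.01 (limma adjusted p = 3.52e-08), with the groups far apart. The acetyltransferase KAT2B rose from 4.08 ± 0.43 to 12.7 ± 0.93 FPKM (1.44), and the coactivator CREBBP by 0.29. PRAME, a repressor of receptor signalling, and TBL1XR1, part of the corepressor complex, fell by 0.48 and 0.32.

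Of 20 tested genes reported to be induced by retinoic acid, 6 were higher, 5 lower and 9 not past the threshold (median 0.015). Over all tested genes 21.8% were higher and 23.1% lower. SOX9, an intestinal stem cell factor, was at 1.53, 1.50 and 1.68 FPKM in LoVo against 29.8, 28.9 and 29.0 FPKM in LoVo-HM (difference 3.56, limma adjusted p = 1.76e-09). FOXA1, a pioneer factor of endodermal epithelia, fell from 19.7 ± 1.29 to 5.78 ± 0.53 FPKM (-1.61), and RARRES3, a phospholipase named for its response to retinoids, from 16.0 ± 1.04 to 4.08 ± 0.80 FPKM (-1.76). TNFAIP2 and the antiproliferative gene BTG2 fell by 1.00 and 0.98. Many of these genes are also known to respond to other signals.

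**Figure D5:**
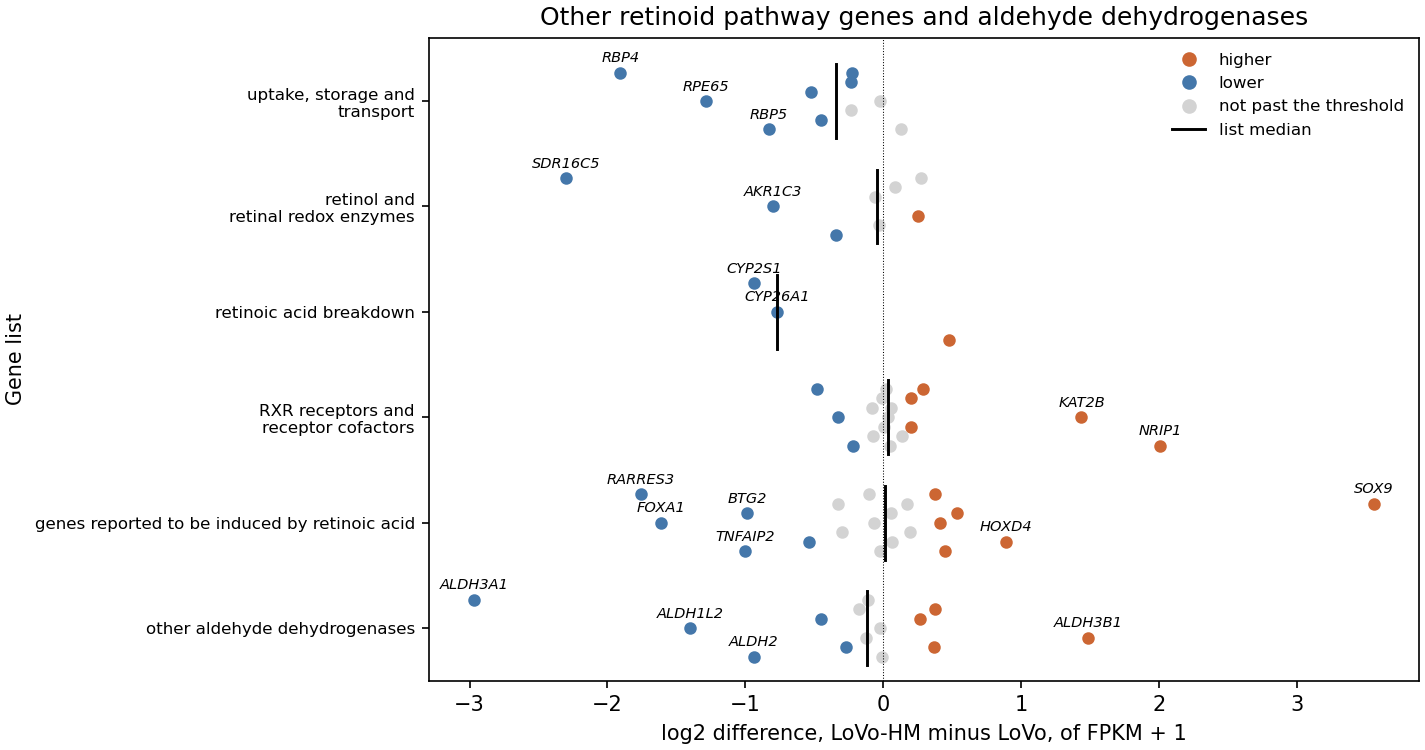
Difference between the lines (log2 of FPKM + 1, LoVo-HM minus LoVo) of each tested gene in 6 lists, one row a list, coloured by whether it passed the threshold, with a black line at each list's median. The medians lie between -0.77 for the 3 breakdown genes and 0.032 for receptors and cofactors, and NRIP1 and SOX9 lie far to the right of their lists.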

How the data were processed

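Per the labels' protocols, RNA was extracted with Trizol and made into Illumina TruSeq libraries. The authors computed FPKM per gene and library and deposited them as 1 table of 6 libraries, on build GRCh38 according to the submitters' processing notes. The aligner, counter, annotation and strand setting were not given in the sources used here. Among 1554 low genes, the ratio of 2 LoVo libraries had no common step (3.35% in the commonest bin of 0.05 log2 units), so the depth remained unknown.

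Values were used unscaled as log2(FPKM + 1), and genes whose mean reached 0.5 FPKM were tested with limma 3.58.1 (R 4.3.3, variance trend, two-sided, Benjamini-Hochberg over 14487 genes). The fit was tested on simulated data. The 4606 gene models without a symbol stayed in the fit. Positions are from GENCODE 29 and promoter windows from RefSeq GRCh38.p14. The 9 members and the lists were chosen with earlier results of these data known. One gene of the uptake, storage and transport list is not reported here and is left out of the list counts and medians. The text names all members, up to 5 tested genes of each list with the smallest p, 8 pathway genes whatever their result, and the 3 genes nearest in pattern to the members with the largest decrease and increase. Alternatives were 2 other pseudocounts, 2 other filters, 3 scalings, 2 variance priors, a replicate block and leaving out each library.

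Genes on the opposite strand share exon bases with some members in GENCODE 29. The share of exon length is 27.5% for ALDH1A3 (AC015712.2) and 5.22% for RDH10 (RDH10-AS1). For RARA it is 11.8% with RARA-AS1 and 6.15% with AC080112.3. TOP2B covers 28 exon bases of RARB (0.76%). The mean of TOP2B was 58.4 FPKM for LoVo and 52.6 for LoVo-HM, that of RARB only 0.131 and 0.182. Without a known strand setting, reads from the shared bases cannot be assigned to either gene. Their part in the values of the members, such as the low ones of RARB, was not tested.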

Additional observations from a re-analysis of the deposited data

How the results depend on the processing

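Under 16 alternatives, 6 to 8 of the retinoid genes passed the threshold, 3 or 4 higher and 3 or 4 lower, and 34 to 43 genes of the 6 other lists. ALDH1A1, ALDH1A3, RDH10, DHRS3, CRABP2 and CYP26B1 kept their direction and call in all 16. ALDH1A1 ranged from -6.12 to -5.64, ALDH1A3 from 0.19 to 0.35 and CYP26B1 from 0.36 to 0.58 (highest limma adjusted p = 0.0427). RARG lost its call in 4 of them and RARA gained one in 1. Over all genes 5484 to 6639 were called, against 6508. The difference of CRABP1 changed sign with equal library totals (0.0042), without LoVo replicate 1 (0.033) and without LoVo-HM replicate 3 (0.0094), and that of RXRA without LoVo-HM replicate 2 (-0.030). Leaving out each library in turn gave -0.10 to 0.033 for CRABP1 and -0.030 to 0.10 for RXRA. Quantile normalization moved the LoVo shares of ALDH1A1 and ALDH1A3 to 36.1% and 63.9%. No shared effect of the replicate number was seen (correlation of deviations -0.0070, 0.022 and 0.026 for the same number). This cannot show whether the samples were handled in pairs, which the labels do not state. With the replicate block 6459 genes and 7 of the retinoid genes were called, and CYP3A5 lost its call (limma adjusted p = 0.0557). Without read counts, no detection limit can be given for genes listed at 0.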

Other observations

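The other aldehyde dehydrogenases, which do not make retinoic acid as their main role, were also read. Of 14 tested, 4 rose, 5 fell and 5 did not pass the threshold (median -0.12), 64.3% changed beside 44.9% of all tested genes. ALDH3A1, an enzyme of corneal and stomach epithelium, was at 14.7, 12.7 and 14.8 FPKM in LoVo and at 1.20, 0.945 and 0.663 FPKM in LoVo-HM, without overlap (-2.96, limma adjusted p = 1.73e-07). The mitochondrial folate enzyme ALDH1L2 fell from 4.90 ± 0.11 to 1.25 ± 0.24 FPKM (-1.40), ALDH2, which clears acetaldehyde, from 13.9 ± 1.96 to 6.71 ± 0.17 FPKM (-0.94), and the fatty aldehyde dehydrogenase ALDH3A2 from 27.9 ± 1.49 to 20.1 ± 0.72 FPKM (-0.45). ALDH3B1 rose from 0.609 ± 0.16 to 3.50 ± 0.33 FPKM (1.49, or 2.37 with a pseudocount of 0.1, limma adjusted p = 1.05e-05 and 2.84e-05). Among the ALDH genes read here, none fell as far as ALDH1A1.

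The nearest tested gene on each side of each member was also read, chosen by position among tested genes that did not overlap the member. Of these 18 neighbours 6 rose, 8 fell and 4 did not pass the threshold. Over all tested genes 21.8% rose and 23.1% fell. RPL7, which overlaps RDH10 and rose (0.17), and TOP2B, which overlaps RARB and did not pass the threshold (-0.15), are not counted. Next to ALDH1A1, at 71.3 kb, ANXA1, which encodes the phospholipid-binding annexin A1, stood at 289 ± 10.4 FPKM in LoVo against 64.4 ± 5.61 FPKM in LoVo-HM (-2.15, limma adjusted p = 2.98e-08). On the other side, at 535.4 kb, ZFAND5 rose by 0.35. Next to CRABP2, at 22.2 kb, the intermediate filament gene NES fell from 15.1 ± 0.73 to 5.60 ± 0.37 FPKM (-1.29). The thyroid hormone receptor gene THRB, 678.6 kb from RARB, was at 0.0613 ± 0.054 FPKM in LoVo against 2.41 ± 0.24 FPKM in LoVo-HM, while RARB stayed below 0.3 FPKM. SBSPON, next to RDH10, was at 0.287 ± 0.12 FPKM in LoVo against 2.25 ± 0.32 FPKM in LoVo-HM. Both THRB and SBSPON were tested, and are counted among the neighbours that rose, only through LoVo-HM, where they were high.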
